A study of Mus musculus with 4 samples.

Results

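Complement is a chain of plasma proteins that macrophages also make. This account covers 9 of its genes in macrophages sorted from tumor-bearing mouse lungs: the C1q chains C1qa, C1qb and C1qc, the convertase components C2, C3 and Cfb, the stabilizer Cfp, and the anaphylatoxin receptors C3ar1 and C5ar1. They were taken by the names C1QA, C1QB, C1QC, C2, C3, CFB, CFP, C3AR1 and C5AR1 from the 27433 rows of the deposited expression table, where each of the 9 has 1 row. The rule itself uses names only, though earlier results of these data were known when the genes were chosen.

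C1q, which binds immune complexes and dying cells, starts the classical pathway, and C2 then supplies the protease of its C3 convertase. In the alternative pathway, factor B (Cfb) supplies the protease, and properdin (Cfp) holds the convertase together. Both convertases cleave C3. The fragments C3a and C5a act on C3ar1 and C5ar1, which are found on many myeloid cells, and tissue macrophages are a main source of C1q.

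The macrophages came from bone marrow chimeras. All recipients were KrasLSL-G12D/+Lkb1fl/fl (KL) mice, lethally irradiated, given marrow and then Ad-Cre through the nose to start tumors. The marrow was Tmem173fl/fl in the WTKL group and Tmem173fl/fl;Lyz2-Cre in the LYZKL group, with 2 libraries each, so the floxed allele was shared and Cre was not. Tmem173 encodes STING, an adaptor of DNA sensing. Lyz2-Cre is expressed from the lysozyme locus, which is active in neutrophils as well as macrophages, and the WTKL marrow carried no Cre, so loss of Tmem173 and presence of Cre cannot be told apart. The sort kept CD11b-positive, Ly6G-negative, CD64-positive cells low for Siglec-F, 8 weeks after Ad-Cre. The sources used here give no age, no number of mice per library and no count of host macrophages left after irradiation. All 4 libraries carry the same batch label. No label ties the libraries to separate animals, so p-values here reflect only how far these samples spread, and that spread may be technical.

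Values are FPKM, which scale reads to gene length and library total, so levels can be compared between genes. Library totals, read from the worth of 1 read in the table, lay between 15466117 and 22867836 reads. Tmem173 was at 15.4 and 15.2 FPKM in WTKL against 5.02 and 4.75 in LYZKL. It fell in limma (log2 difference −1.47, SE 0.06, adjusted p = 0.0452, and 0.0168 to 0.239 over the alternatives). Its reads could not be rebuilt, so that range leaves out limma-voom. Of the gate genes, Ly6g was at 0.418 to 0.985 FPKM in the 4 libraries. Fcgr1 (CD64) was at 25.5 and 24.7 FPKM in WTKL against 19.5 and 20.8 in LYZKL (log2 difference −0.30, SE 0.06, adjusted p = 0.114 in limma and 0.0236 in limma-voom). Siglecf, which encodes the marker the cells were sorted low for, stood at 6.05 and 6.80 FPKM in WTKL but 15.6 FPKM in both LYZKL libraries, and it rose in limma (log2 difference 1.16, SE 0.07, adjusted p = 0.0452; 3.66e-05 to 0.239 over the alternatives). The name Itgam (CD11b) has 2 rows, of 349 to 360 and 80.8 to 104 FPKM.

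C3, the C1q chains and Cfb were among the most abundant transcripts of these cells. Cfb and C3 were lower in both LYZKL libraries than in both WTKL libraries, at 61.9% and 73.0% of the WTKL mean. C5ar1 was higher, at 142% of it, while the C1q chains were at 87.7% to 90.5% and Cfp at 97.0%. C2 had levels below a mean of 1 FPKM and was not tested. Of the other 8 genes, 0 passed an adjusted p of 0.05 in limma on log2(FPKM + 1), where 0.292% of 12691 genes did, 0.158% higher and 0.134% lower. At an unadjusted p under 0.05 there were 4 of 8, against 18.8% of all genes tested. In limma-voom on reads rebuilt from the table, 3 of 8 passed: Cfb and C3 fell and C5ar1 rose. The share of all genes was 9.32% there, 3.52% lower and 5.8% higher. The groups did not overlap for any of the 8, with 7 lower and 1 higher in LYZKL. That held for 52.2% of all genes tested, 24.4% lower and 27.8% higher. The median log2 difference was −0.15 over the 8 and 0.01 over all genes tested.

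**Figure D1:**
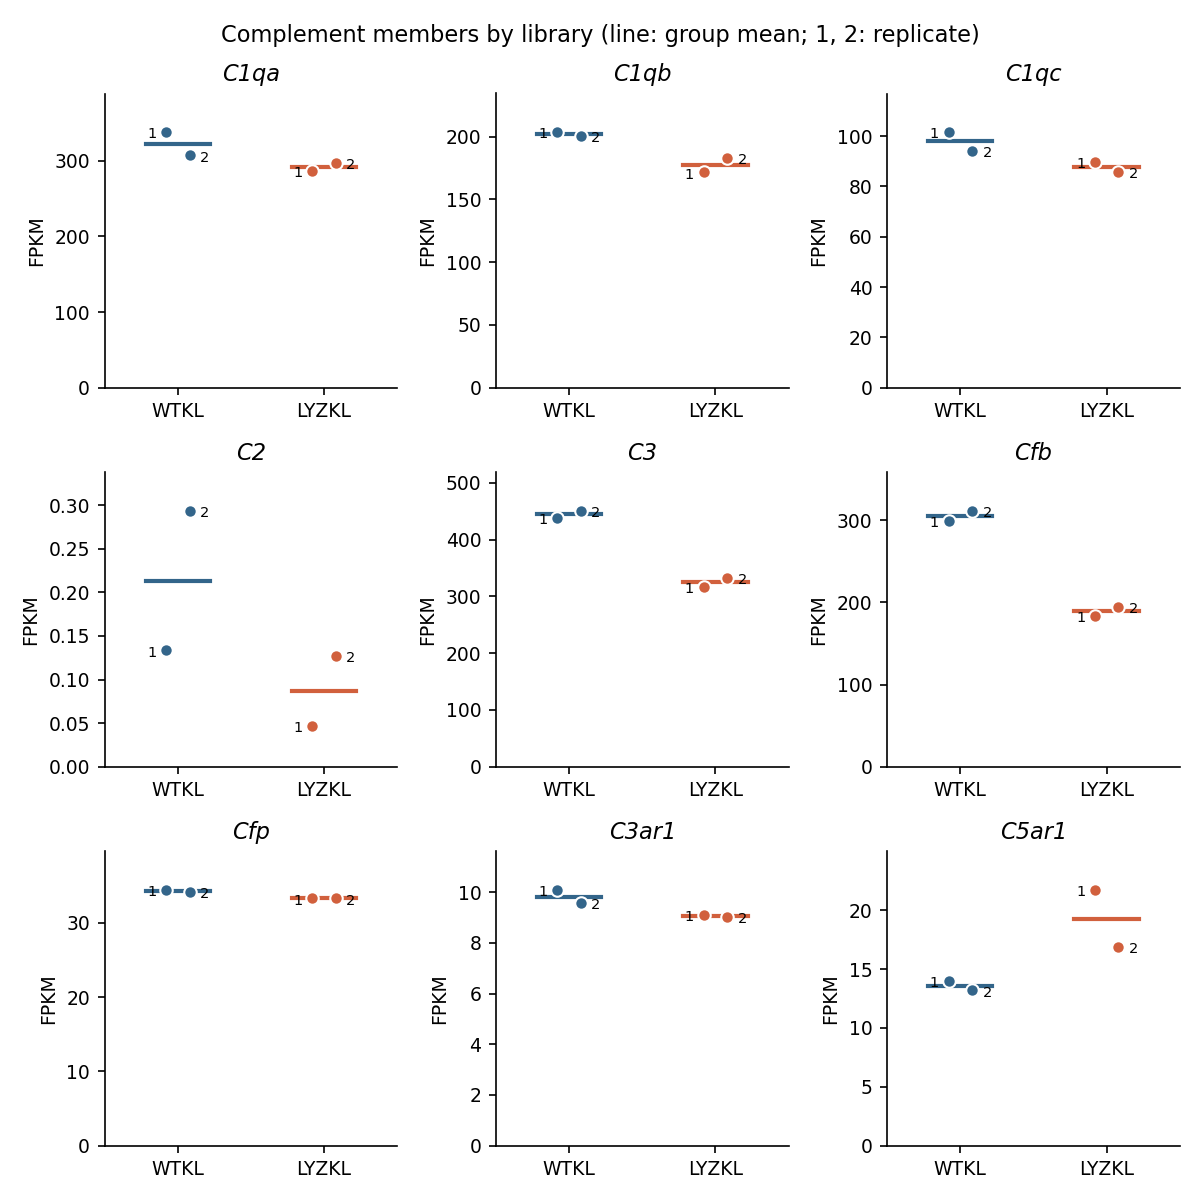
FPKM of the 9 complement genes in each library, on axes that start at 0; points are libraries (1 and 2 are replicate numbers) and lines are group means. Cfb and C3 lie lower in LYZKL and C5ar1 higher, while C2 stays under 0.3 FPKM in every library.

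C1qa, C1qb and C1qc encode the A, B and C chains that assemble into the C1q molecule. They lie side by side on the minus strand of chromosome 4 (GRCm38), C1qb from 136880129 to 136886187, C1qc from 136889804 to 136893065 and C1qa from 136895917 to 136898803. C1qa reached 338 and 307 FPKM in the WTKL libraries against 287 and 297 FPKM in the LYZKL pair. C1qb was at 204 and 201 FPKM in WTKL against 172 and 183 FPKM in LYZKL, and C1qc at 102 and 94.1 against 89.7 and 85.8 FPKM. Each chain was thus lower in both LYZKL libraries, by a margin that for C1qa and C1qc was close to the gap between the WTKL libraries.

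In limma the log2 differences were −0.14 (SE 0.07, adjusted p = 0.353) for C1qa, −0.19 (SE 0.06, adjusted p = 0.196) for C1qb and −0.16 (SE 0.06, adjusted p = 0.288) for C1qc. The 95% intervals ran from −0.32 to 0.04 for C1qa, from −0.34 to −0.04 for C1qb and from −0.32 to 0.01 for C1qc. Without WTKL replicate 1 the C1qa and C1qc differences were −0.07 and −0.10. Within a library the chains kept a like order, C1qa above C1qb above C1qc. Per length, C1qb stood at 0.602 and 0.653 of C1qa in WTKL against 0.598 and 0.616 in LYZKL. The C1qc to C1qa ratio was 0.301 and 0.306 in WTKL and 0.313 and 0.289 in LYZKL. Both ratios overlapped between the groups.

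C3, the protein on which all complement pathways meet, is encoded on chromosome 17 (57203970 to 57228136, minus strand). Among the 9 genes it had the highest level in every library. It was at 439 and 451 FPKM in WTKL against 317 and 333 FPKM in LYZKL, which placed it at the 99.3rd to 99.6th percentile of the rows above 0. The gap between the groups was wider than the gap within either. The log2 difference was −0.45 (SE 0.05), with a 95% interval from −0.60 to −0.31 and an adjusted p of 0.0641 in limma. On rebuilt reads, 34913 and 53010 in WTKL against 26791 and 31371 in LYZKL, limma-voom gave an adjusted p of 0.000563, and over all alternatives the adjusted p ran up to 0.279. Of the 12691 genes tested, 4.12% had a larger difference on the lower side.

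The promoters of C3, C1qb, C1qc and C5ar1 are shown because the C3 and C5ar1 differences have opposite signs and those of the C1q chains are small. These are the 250 bases before each RefSeq gene start on GRCm38.p6, all from the minus strand: C3 at chr17:57228137-57228386, C1qb at chr4:136886201-136886450, C1qc at chr4:136892915-136893164 and C5ar1 at chr7:16259339-16259588. Capitals mark matches to the NF-kB type motif GGGANNNNCC on either strand.
C3: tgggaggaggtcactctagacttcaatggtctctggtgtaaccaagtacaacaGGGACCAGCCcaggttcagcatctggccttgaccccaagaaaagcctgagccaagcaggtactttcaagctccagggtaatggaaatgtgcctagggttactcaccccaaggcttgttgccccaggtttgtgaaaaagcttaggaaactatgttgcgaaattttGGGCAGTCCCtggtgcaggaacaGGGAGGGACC
C1qb: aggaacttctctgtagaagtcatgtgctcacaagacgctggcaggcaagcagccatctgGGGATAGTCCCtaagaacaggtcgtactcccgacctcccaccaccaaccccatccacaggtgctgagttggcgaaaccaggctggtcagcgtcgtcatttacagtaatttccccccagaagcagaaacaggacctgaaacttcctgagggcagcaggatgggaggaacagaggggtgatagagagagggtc
C1qc: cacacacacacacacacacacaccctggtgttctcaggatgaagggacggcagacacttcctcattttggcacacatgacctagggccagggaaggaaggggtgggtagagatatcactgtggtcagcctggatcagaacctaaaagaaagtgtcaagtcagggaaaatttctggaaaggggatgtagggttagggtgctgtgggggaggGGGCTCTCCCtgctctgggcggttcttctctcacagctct
C5ar1: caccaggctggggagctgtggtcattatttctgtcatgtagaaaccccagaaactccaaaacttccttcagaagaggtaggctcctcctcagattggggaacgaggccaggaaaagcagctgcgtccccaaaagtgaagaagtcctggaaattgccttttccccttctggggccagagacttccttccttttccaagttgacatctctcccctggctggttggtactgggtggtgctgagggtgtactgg
C3 had 3 matches, C1qb 2 that overlap each other on opposite strands, and C1qc 1, while C5ar1 had 0. The C1qc and C5ar1 windows reach into the GENCODE M21 spans of those genes, which begin at 136893065 and 16259540 on the minus strand. By that annotation these windows are partly inside the gene, so their matches are not wholly comparable with those of C3 and C1qb. Such a match occurs in 17.6% of the 32851 RefSeq promoter windows of that length. Neither TTCNNNGAA, the interferon-gamma activated site (7.02% of windows), nor GAAANNGAAA, the core of the interferon-stimulated response element (2.98%), was found in the 6 members with a promoter entry, which also include Cfp and C3ar1 without any match. These are matches of letters, not measured binding.

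Cfb (chromosome 17, minus strand, 34856374 to 34862518) is the factor B gene, which lies in the MHC region and is known to respond to interferon-gamma. It was measured at 299 and 311 FPKM in the WTKL libraries against 183 and 195 FPKM in the LYZKL pair. No other of the 8 tested genes had a larger difference: the log2 difference was −0.69 (SE 0.06, 95% interval −0.84 to −0.54), and 1.77% of all genes tested had a larger one on the lower side. Its adjusted p in limma was 0.0538, just above the threshold. Over the alternatives it ran from 6.32e-05, in limma-voom on rebuilt reads (13062 and 20123 in WTKL, 8517 and 10082 in LYZKL), to 0.253, without a WTKL library.

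Next to it C2, whose product is the classical counterpart of factor B, was close to 0 in the table. C2 (34862604 to 34898265, minus strand) was at 0.134 and 0.294 FPKM in WTKL against 0.0471 and 0.127 FPKM in LYZKL, below the filter for testing. Those values rest on 8 and 26 reads in WTKL and 3 and 9 reads in LYZKL. The LYZKL rate was 0.389 of the WTKL rate (exact 95% interval 0.183 to 0.770, counting error only), a difference of the same order as that between the WTKL libraries.

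Another gene model overlaps both rows. Gm20547 runs from 34856412 to 34882042 across Cfb and C2 on the same strand and has 0 exon bases of its own: of its 3902 exon bases, 2246 also belong to Cfb and 1656 to C2 in GENCODE M21. It covers 79.5% of the exon bases of Cfb and 42.8% of those of C2. Even so, its row held 12105 and 18541 reads in WTKL and 7875 and 9250 in LYZKL, which is 91.7% to 92.7% of the Cfb reads. Across the table, 192 of 652 genes without any exon base of their own carried at least 100 reads over the 4 libraries. Reads in shared exons were therefore not all left uncounted, and the sources used here do not say how they were assigned.

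Gm20547 was singled out after its values were seen. Its level was 201 and 208 FPKM in WTKL and 123 and 129 FPKM in LYZKL. It passed the threshold that Cfb missed: its adjusted p in limma was 0.0483 (log2 difference −0.69, SE 0.05), and 5.85e-05 to 0.251 over the alternatives. Because the rows share most exons, this is not a second measurement. The Cfb row held more reads than the Gm20547 row, by 957 and 1582 in WTKL against 642 and 832 in LYZKL. That is 61.9 and 69.2 CPM (scaled to library total) against 39.0 and 45.4 CPM, lower in both LYZKL libraries. This excess counts reads of Cfb alone only if every Gm20547 read was also assigned to Cfb, which is not known. On the other strand, Zbtb12 shares 161 exon bases with C2, and the library kit did not mark strand. The other 7 genes share no exon base with another annotated gene.

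**Figure D2:**
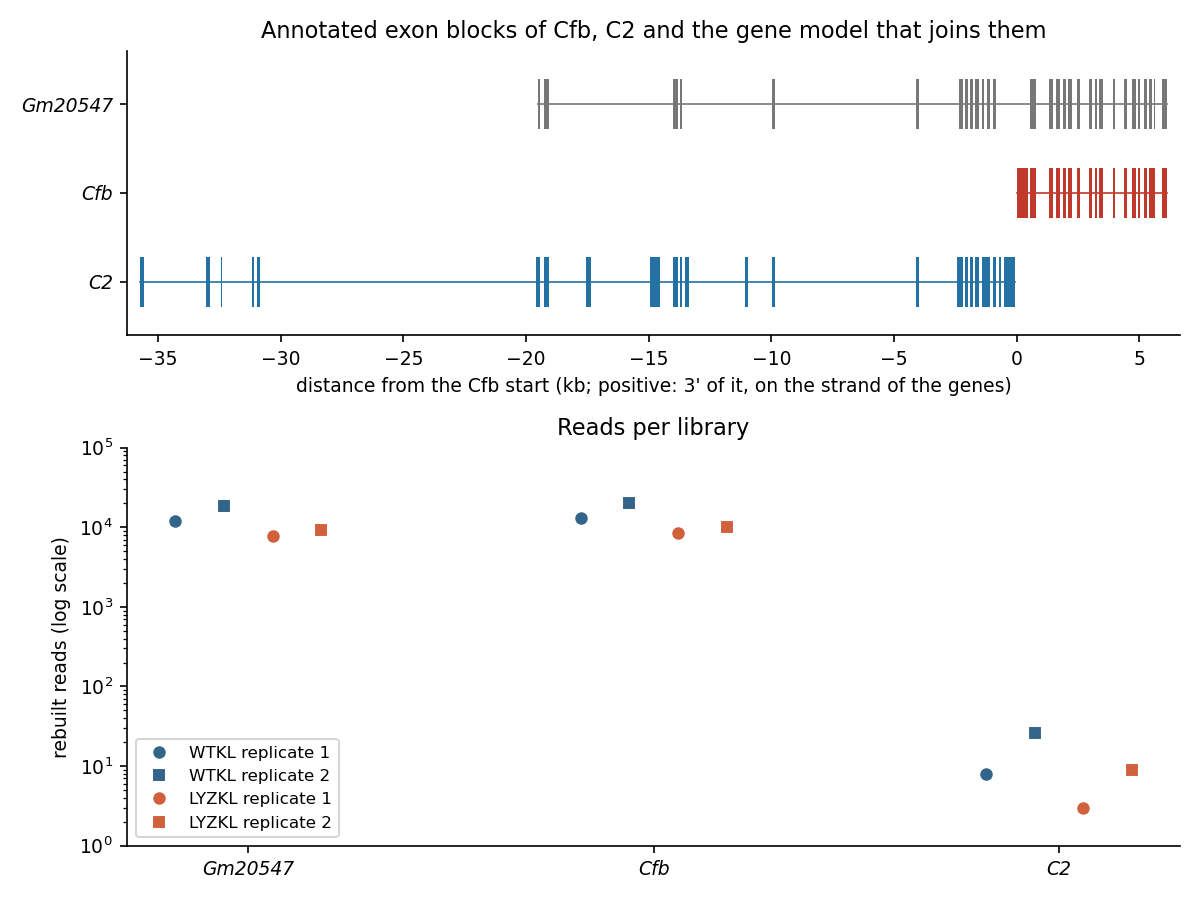
Top, annotated exon blocks of Gm20547, Cfb and C2 by distance from the Cfb start in kb. Bottom, rebuilt reads of the 3 rows in each library on a log axis; Gm20547 follows Cfb at 91.7% to 92.7% of its reads, while C2 has 3 to 26.

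Cfp, the only member on the X chromosome (20925454 to 20931555, minus strand), encodes properdin. It was at 34.5 and 34.2 FPKM in WTKL against 33.3 FPKM in both LYZKL libraries. Its log2 difference of −0.04 (SE 0.05, adjusted p = 0.684 in limma) had a 95% interval from −0.17 to 0.08. All 4 values lay between 33.3 and 34.5 FPKM.

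C3ar1 (chromosome 6, 122847138 to 122856161, minus strand), the receptor for C3a, was at 10.1 and 9.57 FPKM in WTKL against 9.12 and 9.04 FPKM in LYZKL. Its log2 difference, −0.10 (SE 0.06), had an adjusted p of 0.445 in limma and a 95% interval from −0.27 to 0.06. C5ar1 (chromosome 7, 16246743 to 16259540, minus strand), the receptor for C5a through which neutrophils and macrophages are recruited and activated, went the other way. It was at 14.0 and 13.2 FPKM in WTKL against 21.7 and 16.9 FPKM in LYZKL. Both LYZKL libraries were higher, but they lay further apart than the WTKL libraries did.

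The C5ar1 log2 difference was 0.47 (SE 0.13, 95% interval 0.11 to 0.82), with an adjusted p of 0.187 in limma. On rebuilt reads (556 and 775 in WTKL, 919 and 794 in LYZKL) limma-voom gave an adjusted p of 0.0187, and the alternatives reached 0.438. Without LYZKL replicate 1 the difference was 0.29, and without LYZKL replicate 2 it was 0.64. C5ar2, the neighbouring second receptor for C5a, was at 5.96 and 7.20 FPKM in WTKL against 9.06 and 8.84 FPKM in LYZKL (log2 difference 0.40, SE 0.10, adjusted p = 0.159 in limma and 0.0258 in limma-voom; 0.0258 to 0.480 over the alternatives). The C5ar1 to C5ar2 ratio overlapped between the groups, at 2.35 and 1.83 in WTKL and 2.40 and 1.91 in LYZKL.

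Ratios within a library do not depend on its total. The Cfb to C3 ratio was 0.681 and 0.691 in WTKL and 0.579 and 0.585 in LYZKL. The C1qa to C3 ratio was 0.771 and 0.682 in WTKL and 0.906 and 0.893 in LYZKL. Together C3 and Cfb held 51.2% and 53.6% of the summed FPKM of the 9 genes in WTKL and 44.9% and 45.8% in LYZKL. That sum was 1440 and 1422 FPKM in WTKL and 1112 and 1153 FPKM in LYZKL. The C5ar1 to C3ar1 ratio was 1.39 and 1.38 in WTKL and 2.38 and 1.87 in LYZKL. For groups of 2, the exact permutation test of a ratio cannot give a two-sided p below 0.333.

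**Figure D3:**
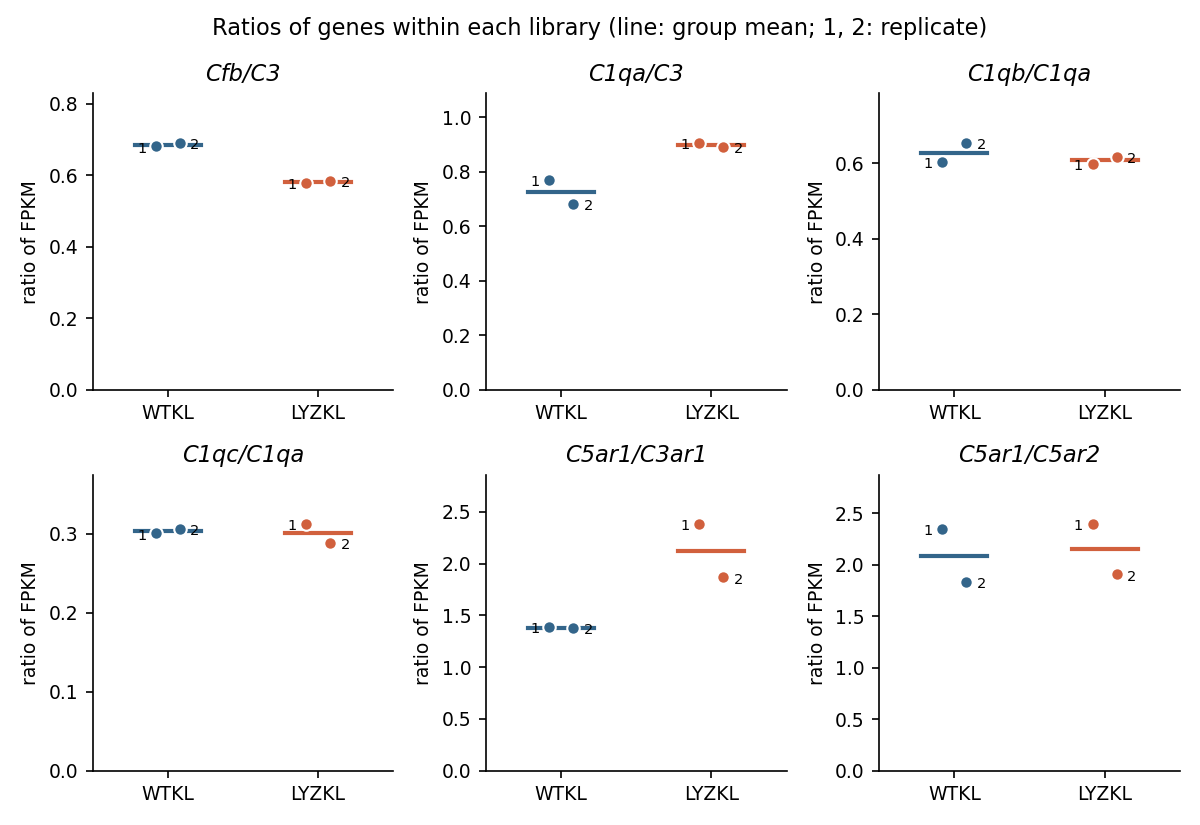
Ratios of FPKM between genes in each library, on axes that start at 0; points are libraries and lines are group means. The Cfb to C3 ratio is lower and the C1qa to C3 and C5ar1 to C3ar1 ratios are higher in both LYZKL libraries, while the ratios among C1q chains and between the C5a receptors overlap.

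The rest of the pathway was taken from a list of 45 other complement genes, of which 38 names had a single row and 18 reached a mean of 1 FPKM. In limma 0 of these 18 passed, where 0.292% of all genes tested did. At an unadjusted p under 0.05 there were 7, against 18.8% of all genes tested. In limma-voom 4 passed, among them Fcna and C1s1, which fell, and C5ar2, which rose. The share of all genes there was 9.32%. The median log2 difference was −0.13, with 14 of 18 below 0, against 6076 of 12691 among all genes tested.

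Among the classical and lectin pathway genes, Fcna, which encodes ficolin A, a lectin made by macrophages, was at 44.1 and 45.6 FPKM in WTKL against 24.8 and 28.9 FPKM in LYZKL. Its log2 difference, −0.72 (SE 0.09), had an adjusted p of 0.0641 in limma and of 0.000449 in limma-voom, and up to 0.279 over the alternatives. With the filter at a mean of 5 FPKM it passed in limma (adjusted p = 0.0302). C4b, which encodes the C4 that C1s cleaves, was at 73.1 and 80.4 FPKM in WTKL against 65.1 and 72.3 FPKM in LYZKL. C4b has a near-identical neighbour, C4a, at 0.572 to 1.12 FPKM, and reads of the pair may not be separable. The serine protease genes C1ra and C1s1, partners of C1q in the C1 complex, were at 19.9 to 23.2 and at 2.31 to 3.99 FPKM. C1s1 had 119 to 275 reads per library and a log2 difference of −0.48 (SE 0.10, adjusted p = 0.125 in limma and 0.0212 in limma-voom; up to 0.385 over the alternatives). C1rl, a gene related to C1ra, was at 6.55 and 6.45 FPKM in WTKL against 5.19 and 5.24 in LYZKL.

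Among the inhibitors, Clu, the clusterin gene, differed more within WTKL (2.03 and 10.2 FPKM) than between the groups.

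Of the receptors for C3 fragments, Itgb2, the shared beta chain of complement receptors CR3 and CR4, was at 502 and 520 FPKM in WTKL and 485 and 521 FPKM in LYZKL. Itgax, the CR4 alpha chain, was at 123 to 127 FPKM in all libraries. Vsig4, a receptor for C3b on some tissue macrophages that was singled out after its values were seen, was at 2.57 and 2.56 FPKM in WTKL and 1.47 and 1.65 FPKM in LYZKL (log2 difference −0.48, SE 0.10, adjusted p = 0.118 in limma; 0.106 to 0.382 over the alternatives). The 7 genes of the terminal pathway, from C5 (Hc in mouse) to C9, all had means under 1 FPKM, and Cfd, the protease that activates factor B, had 1 read in 1 library.

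**Figure D4:**
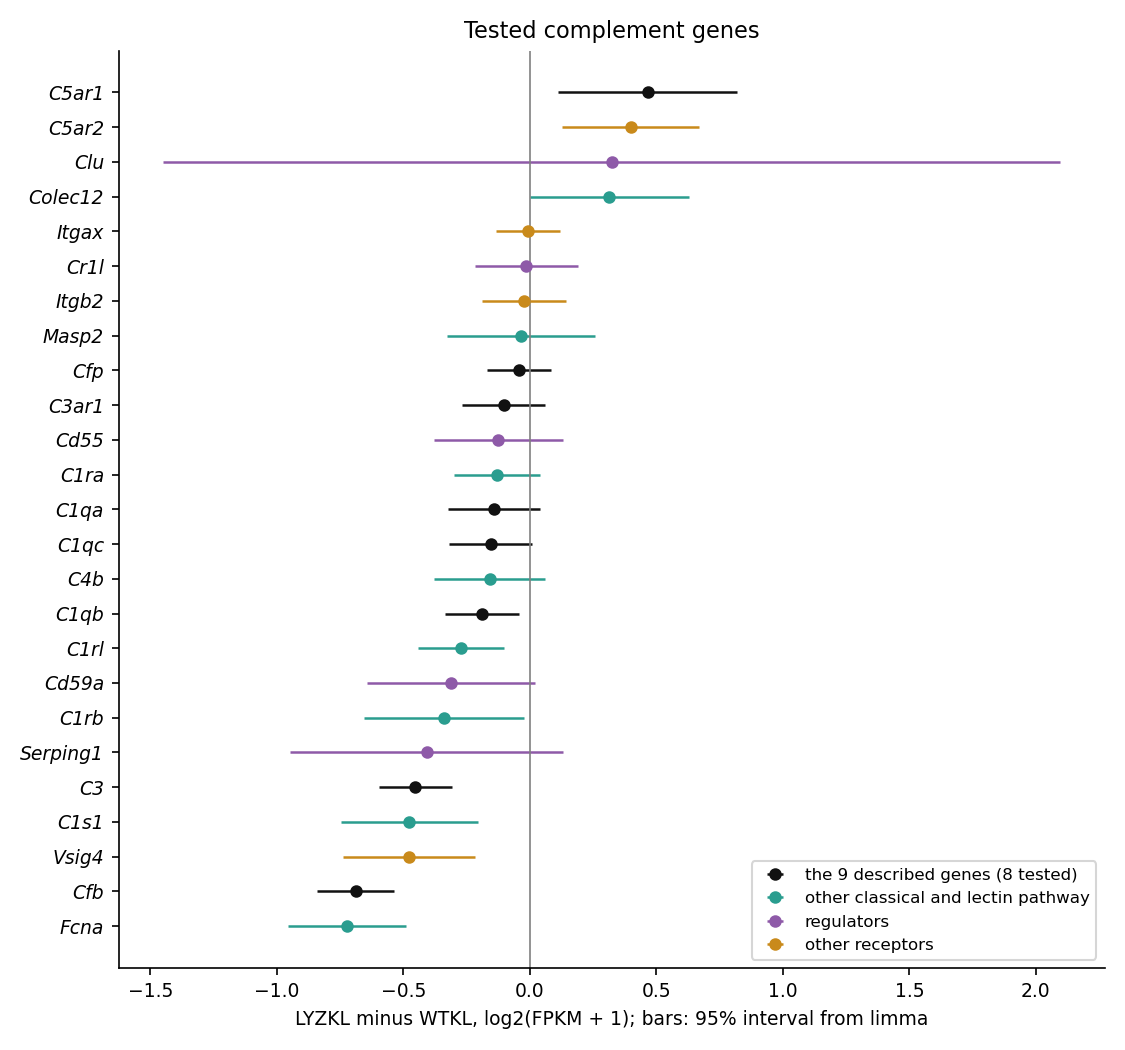
Differences between LYZKL and WTKL on the log2(FPKM + 1) scale for 25 tested complement genes with 1 row each, with 95% intervals from limma. C5ar1, C5ar2, Clu and Colec12 lie to the right of 0, and Fcna, Cfb, Vsig4, C1s1 and C3 are the lowest.

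Other gene groups differed between the same libraries. These are bulk samples, in which fewer cells of a type and less RNA per cell cannot be told apart. The counts for all lists below stand beside the same shares of all genes tested. Limma called 0.158% higher and 0.134% lower, and 18.8% had an unadjusted p under 0.05. Limma-voom called 5.8% higher and 3.52% lower. Of 25 tested genes of the interferon-gamma response, Cxcl9, Gbp5, Nos2 and Tgtp2, named because they passed, fell in limma (adjusted p 0.0452 to 0.0478, and up to 0.249 over the alternatives) and 23 fell in limma-voom, with 0 that rose in either and a median log2 difference of −0.58. Their summed level was 1860 and 1816 FPKM in WTKL and 1123 and 1243 FPKM in LYZKL. The most abundant, the GTPase gene Gbp2, averaged 304 ± 6.25 FPKM in WTKL against 179 ± 15.0 FPKM in LYZKL (SD, n = 2). The part of this response in the Cfb and C3 values was not tested.

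Of 11 tested neutrophil markers, limma called 0 (7 higher by unadjusted p under 0.05), and 7 rose in limma-voom, with a median of 0.92. Their summed level was 2469 and 1933 FPKM in WTKL and 5682 and 3716 FPKM in LYZKL. S100a9 alone made up 2061 of that sum in WTKL replicate 1 and 4860 in LYZKL replicate 1. C5ar1 is also a neutrophil gene, and like the sum it was highest in LYZKL replicate 1. The mean log2 level of the tested markers was 5.30 and 5.34 in WTKL and 6.36 and 5.98 in LYZKL. The defining marker Ly6g was at 0.418 to 0.985 FPKM, and 0 of the 14 neutrophil rows were at 0 in all libraries. By summed level only, monocyte markers showed a like order of libraries. Of 9 tested, limma called 0 (4 higher by unadjusted p under 0.05). In limma-voom 4 rose and 0 fell, with a median log2 difference of −0.04 and 5 of the 9 below 0. Their summed level, 379 and 340 FPKM in WTKL and 480 and 431 FPKM in LYZKL, was also highest in LYZKL replicate 1. Their mean log2 level overlapped between the groups, at 4.712 and 4.529 in WTKL and 4.778 and 4.71 in LYZKL. The part of neutrophil or monocyte RNA in the C5ar1 value was not tested.

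**Figure D5:**
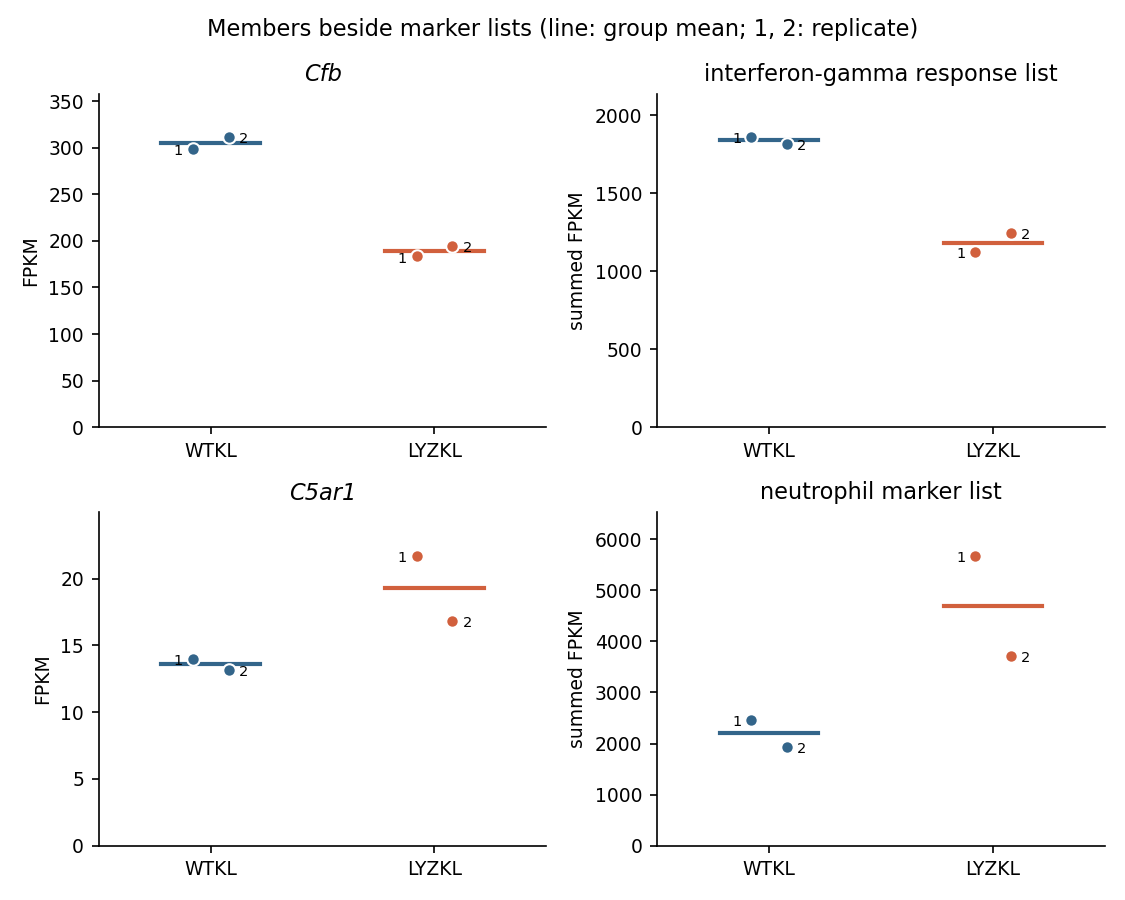
Cfb beside the summed FPKM of the interferon-gamma response list, and C5ar1 beside that of the neutrophil marker list, in each library; points are libraries and lines are group means. Cfb and the interferon-gamma list are lower in both LYZKL libraries, and C5ar1 and the neutrophil list are higher, with LYZKL replicate 1 highest.

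Macrophage markers gave a check of the cells that make C1q. Cd68, a lysosomal marker of macrophages, averaged 375 ± 3.47 FPKM in WTKL against 376 ± 13.2 FPKM in LYZKL (SD, n = 2). Cd68 does not stand for the whole list. Of 15 macrophage markers, 9 had a log2 difference below 0 and 6 above, and the median was −0.07. Limma called 0 (5 by unadjusted p under 0.05), and 4 fell in limma-voom, among them Fcgr1, Lyve1 and Lyz2. Lyz2, the locus of Cre, was at 9560 and 10232 FPKM in WTKL against 2614 and 3650 FPKM in LYZKL. Because only LYZKL carried Cre at this locus, the Lyz2 difference cannot be told apart from the presence of Cre and is no measure of macrophages here. T and NK cell markers, at 109 to 116 FPKM summed in WTKL and 64.1 to 81.0 in LYZKL, had 0 of 13 past the threshold in limma (9 at an unadjusted p under 0.05), 8 that fell in limma-voom and a median of −0.59. Of 8 tested alveolar macrophage markers, Siglecf rose in limma, with 4 at an unadjusted p under 0.05 and a median of 0.06. In limma-voom Siglecf and Marco, a scavenger receptor gene, rose and Chil3, a chitinase-like gene, fell. The summed level of that list was 2060 and 2544 FPKM in WTKL and 2019 and 2125 FPKM in LYZKL. On the log2 scale, the mean of the 8 was higher in both LYZKL libraries. It was 5.515 and 5.794 in WTKL and 5.817 and 5.975 in LYZKL. The part of these marker differences in the values of the 9 genes was not tested.

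Genes whose 4 values ran most like those of 3 members were sought among 3834 named genes whose mean reached 10 FPKM, by the Euclidean distance between log2(FPKM + 1) values centred on each gene's mean. For Cfb these were Gbp6, another interferon-inducible GTPase gene (distance 0.038), Serpina3f (0.071) and Fcna (0.094). Gbp6 was at 62.8 and 65.1 FPKM in WTKL and 37.5 and 41.4 FPKM in LYZKL. For C5ar1 they were Clec4e, a lectin receptor gene of the monocyte marker list (0.040), the chemokine receptor gene Ccr1 (0.060) and the mitochondrial tRNA gene mt-Ti (0.064). Clec4e was at 90.3 and 84.4 FPKM in WTKL and 135 and 110 FPKM in LYZKL. For C1qa they were Thoc7 (0.015), the ribosomal protein gene Rpl24 (0.017) and Sp100 (0.018), with log2 differences from −0.15 to −0.14. With 4 libraries, likeness of this kind is a description.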

How the data were processed

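The authors deposited 1 table of FPKM values per gene and library, with replicates kept apart. Tools listed, without roles, in the submitters' processing notes are featureCounts 2.0.0, HISAT2 2.0.5 and Cell Ranger 6.1.2, and the build is mm10. The annotation is not given in the sources used here. Per the labels' protocols, the kit made poly(A) libraries without marking strand.

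Genes whose mean reached 1 FPKM, 12691 in all, entered a two-sided limma 3.58.1 test (R 4.3.3, trend option) of log2(FPKM + 1), with Benjamini-Hochberg adjustment over all of them and a threshold of 0.05. This scale understates the change of low genes. Every adjusted p is from limma or its voom function.

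Reads were rebuilt from FPKM with GENCODE M21 exon lengths (tolerance 0.05 read) or a searched length (0.003). Of the tested rows, 10001 and 2675 came out whole, 99.88% together, and limma-voom ran on those. Read intervals cover counting error only. The naming rule took all 9 members, the called and the 12 most abundant other complement genes, the 3 most abundant genes of each marker list, the genes of the sort gate, Tmem173 and Lyz2, and the nearest 3 genes to C1qa, Cfb and C5ar1. Members and lists were chosen with earlier results of these data known. The limma test, but not limma-voom, was checked on simulated data, with planted differences larger than those of the tested members. Promoter entries were found for 6 of the 9 genes. Some genes of the lists count in the totals but are not reported here.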

Additional observations from a re-analysis of the deposited data

How the results depend on the processing

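The 8 tested members kept their direction under all 13 alternatives. Of 104 such values, 98 stayed on their side of the threshold and 6 passed it: Cfb and C3 with a mean of at least 5 FPKM (−0.69 and −0.45), Cfb after quantile normalization (−0.69), and Cfb (−0.69), C3 (−0.45) and C5ar1 (0.49) in limma-voom on rebuilt reads. The 37 genes called in all became 0 with no filter, without the trend and with any 1 library left out (0 to 0), 340 with a mean of at least 5 FPKM and 1181 in limma-voom. Of the other complement genes, 0 were called by limma, 1 with a mean of at least 5 FPKM and 4 in limma-voom. With the replicate number as a block, 0 genes were called and no member passed. The difference between replicates 1 and 2 correlated at 0.16 across genes between the groups, but the labels do not say that the numbers pair libraries. C2 rests on 3 to 26 reads, and its low level beside Cfb was not tested. The cause of these changes was not tested.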
